A study of Mus musculus with 12 samples.

Results

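Glucose transporters and hexokinases carry out the uptake of glucose and its first chemical step, and 9 of their genes were examined in the left ventricle of WT and cmGch1 KO mice: Slc2a1, Slc2a3, Slc2a4, Slc2a8, Slc2a12, Hk1, Hk2, Hk3 and Hkdc1. These were found by their symbols in GENCODE M21 among the 26921 genes of the deposited count table. RNA sequencing was done on 6 libraries of each genotype, all from mice aged 16 weeks. Both genotypes carried floxed Gch1 alleles on both chromosomes. cmGch1 KO mice carried in addition 1 copy of an α-MHC-Cre transgene, which expresses Cre recombinase in cardiomyocytes, and WT littermates lacked Cre. Gch1 encodes GTP cyclohydrolase I, which is needed to make tetrahydrobiopterin. No library with Cre and without floxed alleles was analysed here, so the deletion and the presence of Cre cannot be told apart. The question put by the study is whether loss of Gch1 from cardiomyocytes changes genes of cardiac metabolism.

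Glucose enters cells by facilitated diffusion through GLUT proteins, which the Slc2a genes encode, and hexokinases then phosphorylate it to glucose 6-phosphate, which cannot leave through the transporters. In the adult heart GLUT4 is held in vesicles inside the cell and moves to the surface with insulin or contraction, whereas GLUT1 gives a basal uptake and is abundant in fetal heart. Hexokinase 1 and hexokinase 2 both bind the outer mitochondrial membrane, and hexokinase 2 is the form best known for its regulation by insulin in muscle.

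The clearest difference was in the ratio of Hk1 to Hk2 counts, which separated the genotypes with no overlap. Hk1 stood at 1.31 times the WT level in cmGch1 KO hearts and passed the test. That call held in 1 of 12 fits that each left out a library, and was lost without cmGch1 KO replicates 2 and 3. Hk2 stood at 0.842 of the WT level without passing the test. Among the transporters none passed the test, although Slc2a12 levels were lower in each cmGch1 KO library than in each WT library. Slc2a4, the most abundant transporter, was at 0.916 of the WT level.

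RefSeq sequences of build GRCm38.p6 were available for 7 of the 9 genes, in 8 windows, and the 250 bases upstream of the start are shown for the hexokinase pair whose balance differed between the genotypes and for 2 of the transporters. Capitals mark the letters ACGTG, or CACGT where they lie on the other strand, the core of the site bound by hypoxia-inducible factors and by several E-box factors.
Hk2 (chr6:82774455-82774704, minus strand): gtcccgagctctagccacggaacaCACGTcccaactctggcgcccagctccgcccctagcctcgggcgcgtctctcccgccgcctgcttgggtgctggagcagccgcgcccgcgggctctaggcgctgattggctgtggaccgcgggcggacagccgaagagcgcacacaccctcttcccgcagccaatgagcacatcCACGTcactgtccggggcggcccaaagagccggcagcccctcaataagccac
Hk1, upstream start (chr10:62379909-62380158, minus strand): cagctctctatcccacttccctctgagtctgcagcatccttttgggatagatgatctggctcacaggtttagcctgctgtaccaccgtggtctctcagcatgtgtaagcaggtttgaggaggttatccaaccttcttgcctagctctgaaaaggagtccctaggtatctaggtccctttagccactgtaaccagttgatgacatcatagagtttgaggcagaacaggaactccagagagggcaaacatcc
Hk1, downstream start (chr10:62340422-62340671, minus strand): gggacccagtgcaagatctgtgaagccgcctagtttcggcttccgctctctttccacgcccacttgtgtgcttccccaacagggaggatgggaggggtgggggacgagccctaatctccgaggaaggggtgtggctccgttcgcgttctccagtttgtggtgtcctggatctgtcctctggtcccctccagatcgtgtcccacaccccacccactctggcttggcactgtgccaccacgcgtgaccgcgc
Slc2a1 (chr4:119108495-119108744, plus strand): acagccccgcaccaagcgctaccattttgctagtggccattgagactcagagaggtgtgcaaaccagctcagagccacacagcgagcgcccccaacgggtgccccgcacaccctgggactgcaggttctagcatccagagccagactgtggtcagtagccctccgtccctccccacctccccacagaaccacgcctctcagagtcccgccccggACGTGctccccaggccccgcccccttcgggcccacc
Slc2a12 (chr10:22644761-22645010, plus strand): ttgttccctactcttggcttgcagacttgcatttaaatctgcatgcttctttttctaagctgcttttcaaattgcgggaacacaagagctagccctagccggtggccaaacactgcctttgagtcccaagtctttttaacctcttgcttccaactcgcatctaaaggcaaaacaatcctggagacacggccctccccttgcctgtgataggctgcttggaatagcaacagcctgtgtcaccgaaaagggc
The Hk2 window was rich in G and C (69.6%) and held ACGTG 2 times, CCAAT 2 times and GGGCGG 3 times over both strands, none of which overlapped another. The window of Slc2a1 held ACGTG 1 time and GGGCGG 2 times. Neither window of Hk1 nor that of Slc2a12 held any of these letters, and TATAAA was in none of the 8 windows. Of all 32851 windows of this length, 16.6% held ACGTG, 33.8% held CCAAT, 32.7% held GGGCGG and 12.4% held TATAAA. Hk1 has 2 such starts and the counts are per gene, so that the part of each start in the Hk1 values was not measured.

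Counts totalled between 19921398 and 37917806 per library and are given as cpm, the count relative to the library total after scaling by TMM, a method that aligns libraries on the bulk of their genes. Gch1 fell from 10.7 ± 0.979 to 5.51 ± 0.859 cpm (SD, n = 6 each; edgeR's quasi-likelihood test, adjusted p = 6.88e-04), with no overlap between the genotypes. cmGch1 KO replicates 2 and 3 stood apart from the other 10 libraries. Their Xist levels were 87.1 and 99.6 cpm with 0 cpm of 4 Y-linked genes, the pattern of female mice. The other 10 libraries had the male pattern, with at most 0.235 cpm of Xist and 168 to 193 cpm of the Y-linked genes. Sex is not in the labels, and by this pattern it was uneven between the genotypes. Results without these 2 replicates thus compare libraries of the male pattern alone. Mitochondrial genes held 14.9% and 16.1% of the counts of replicates 2 and 3 against 18.3% to 22.9% elsewhere. The summed level of 8 cardiomyocyte markers ranged from 55010 to 59807 cpm in WT and from 47636 to 53116 cpm in cmGch1 KO libraries. All 8 had a lower mean in cmGch1 KO hearts and none passed the FDR threshold. Summed endothelial markers ranged from 824 to 1029 cpm in WT and from 888 to 1050 cpm in cmGch1 KO libraries. For fibroblasts the ranges were 652 to 878 and 721 to 865 cpm, for macrophages 151 to 187 and 184 to 223 cpm, and for pericytes and smooth muscle 1157 to 1319 and 1228 to 1305 cpm. In the last list 6 of 8 markers were below 0, Myh11, Tagln and Cnn1 of smooth muscle among them (log2 fold changes -0.24, -0.40 and -0.21), and Acta2, smooth muscle actin, was the 1 that passed, at 0.66 (edgeR's test, adjusted p = 0.00672). Erythroid markers lay between 393 and 1153 cpm in WT and between 431 and 926 cpm in cmGch1 KO libraries. Log2 fold changes were above 0 for 7 of 8 fibroblast and 5 of 8 endothelial markers. They were below 0 for all 5 tested erythroid markers, and none of these 3 lists held a gene past the FDR threshold. Neutrophil and adipocyte markers were near 0, with sums of at most 5.01 and 3.50 cpm in any library, and nerve and glia markers reached at most 13.6 cpm. Atrial markers summed to between 88.3 and 564 cpm in WT and between 259 and 756 cpm in cmGch1 KO libraries. Of the 5 tested, 3 had log2 fold changes above 0 and 2 below. The 1 past the FDR threshold was Nppa, a natriuretic peptide gene that ventricles also express under load (log2 fold change 1.53, adjusted p = 0.0240 from edgeR's test).

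A test of genotype was made for the 11225 genes with a cpm over 3 in at least 6 libraries. Slc2a1, Slc2a4, Slc2a8, Slc2a12, Hk1 and Hk2 passed this minimum in all 12 libraries, and Slc2a3, Hk3 and Hkdc1 in none. In this bulk tissue, fewer cells of a type and less RNA per cell cannot be told apart.

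Between genes, levels were compared as RPKM, which divides the cpm by the length of the merged exons in kilobases. Slc2a4 had the highest level of the 9, between 95.9 and 126 RPKM over the 12 libraries. Hk2 followed with 39.1 to 66.4 RPKM and Hk1 with 20.1 to 33.9 RPKM. Slc2a8, at 4.64 to 6.75 RPKM, and Slc2a1, at 3.97 to 6.49 RPKM, did not differ beyond their spread. Slc2a12 was lower again, at 1.68 to 2.89 RPKM. Hk3 (0.147 to 0.547 RPKM) and Slc2a3 (0.183 to 0.352 RPKM) overlapped at the bottom of the order, and Hkdc1 had no count in any library. The gap between Hk2 and Hk1 depended on the length used, since the merged exons of Hk1 span 8532 bases and its longest transcript 4278 bases. With the longest transcript of each gene, Hk1 lay between 40.1 and 67.5 RPKM and Hk2 between 42.3 and 71.9 RPKM, ranges that overlap.

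Hk1 (ENSMUSG00000037012) occupies positions 62268855 to 62379908 of chromosome 10, minus strand, in GENCODE M21 on GRCm38, the source of all gene positions given here. It ranged from 171 to 203 cpm in WT libraries (median 194 cpm) and from 197 to 289 cpm in cmGch1 KO libraries (median 253 cpm). In cmGch1 KO hearts 5 of 6 libraries were above the highest WT library, and replicate 1, at 197 cpm, lay within the WT range. The means were 192 ± 11.4 and 251 ± 30.9 cpm (SD, n = 6 each). The log2 fold change of 0.39 had a standard error of 0.08 and a 95% interval from 0.21 to 0.57, and passed the threshold (edgeR's quasi-likelihood test, adjusted p = 0.0407). An exact permutation test over all 924 splits gave p = 0.00649, two-sided. Hk1 was the 1 of 6 tested members to pass, where 0.677% of all tested genes were called higher and 0.445% lower, or 1.12% in all. The call held in 1 of 12 fits that each left out a library, that without cmGch1 KO replicate 1 (log2 fold change 0.45, adjusted p = 0.00339). Without any other single library, of either genotype, the adjusted p lay between 0.0627 and 0.112 and the log2 fold change between 0.34 and 0.40. Without cmGch1 KO replicates 2 and 3 it was 0.39 (adjusted p = 0.160 from edgeR's test).

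Hk2 (ENSMUSG00000000628) occupies positions 82725025 to 82774454 of chromosome 6, minus strand. Its levels were between 266 and 396 cpm in WT libraries, with a median of 361 cpm, and between 233 and 356 cpm (median 274 cpm) in cmGch1 KO libraries. The genotypes overlapped, with 2 of 6 cmGch1 KO libraries below every WT library. The log2 fold change was -0.25, with a 95% interval from -0.51 to 0.01 (standard error 0.12; edgeR's quasi-likelihood test, adjusted p = 0.474). Hk2 varied more between WT libraries than Hk1, with a coefficient of variation of 14.7% against 5.92%.

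Within each genotype, libraries with more Hk2 tended to have more Hk1, although neither relation passed after adjustment. In WT the Pearson r was 0.931 (exact permutation p = 0.00278) and Spearman's rho 0.943 (exact p = 0.0167). In cmGch1 KO hearts r was 0.839 (exact permutation p = 0.0236) and rho 0.886 (exact p = 0.0333). Over the 30 relations computed between tested members, the Benjamini-Hochberg adjusted p was 0.0833 in WT and 0.354 in cmGch1 KO hearts, neither under 0.05. Without the 2 libraries farthest from the median of Hk1, r was 0.807 and 0.851. The plot of Hk1 against Hk2 has the libraries of each genotype along a line of their own, with that of the cmGch1 KO libraries above that of WT.

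**Figure D1:**
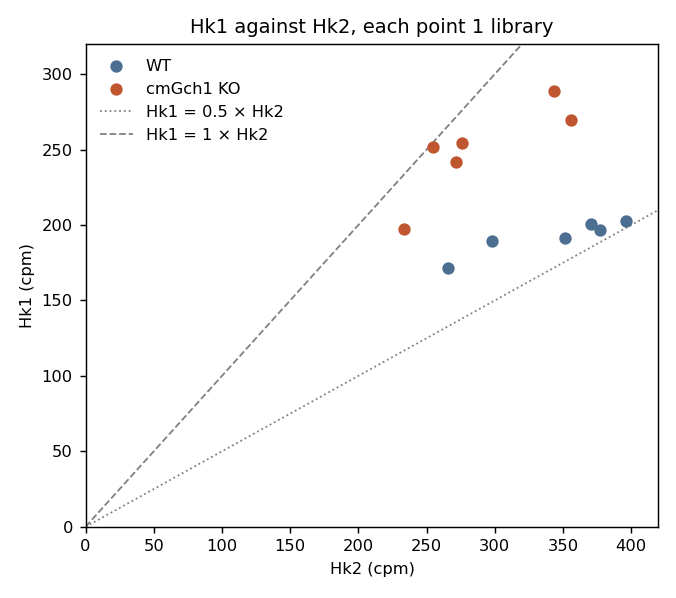
Hk1 (vertical axis, cpm) against Hk2 (horizontal axis, cpm) in the 12 libraries, 1 point each, with blue for WT and orange for cmGch1 KO; the dotted and dashed lines mark Hk1 at 0.5 and at 1 times Hk2. WT points stay near the dotted line (count ratios from 0.512 to 0.644), and cmGch1 KO points lie closer to the dashed line (0.759 to 0.990).

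The ratio of Hk1 to Hk2 counts does not depend on how libraries are scaled against each other. In WT replicates 1 to 6 it was 0.644, 0.521, 0.544, 0.635, 0.541 and 0.512. In cmGch1 KO replicates 1 to 6 it was 0.846, 0.990, 0.891, 0.921, 0.841 and 0.759. The lowest cmGch1 KO library was thus above the highest WT library, a separation that 1.07% of tested genes showed in this direction in their own levels, and 1.87% in either direction. The share of gene pairs whose ratio separates in this way was not computed. On the log2 scale the means were -0.83 ± 0.15 and -0.20 ± 0.13 (SD, n = 6 each), a difference of 0.63, or 1.55 fold. The exact permutation test gave p = 0.00216, two-sided, the smallest that 6 libraries against 6 allow, and 0.0108 after Benjamini-Hochberg adjustment over the 5 ratios tested. Leaving out each library in turn gave differences from 0.59 to 0.67. Among the 10 libraries without cmGch1 KO replicates 2 and 3 the difference was 0.57, again without overlap (exact permutation test, adjusted p = 0.0238).

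Per length of merged exons, the ratio of Hk1 to Hk2 went from between 0.358 and 0.451 in WT to between 0.531 and 0.692 in cmGch1 KO libraries. Per length of the longest transcript it went from between 0.660 and 0.830 to between 0.978 and 1.28, so that 5 of the 6 cmGch1 KO libraries then had more Hk1 than Hk2. Of the summed RPKM of the hexokinase genes, Hk1 made up 26.3% to 31.0% in WT and 34.6% to 40.6% in cmGch1 KO libraries on merged exons. These shares are a description, without a test. The summed cardiomyocyte markers, which were lower in each cmGch1 KO library than in each WT library, moved with this ratio, and their part in it was not tested.

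**Figure D2:**
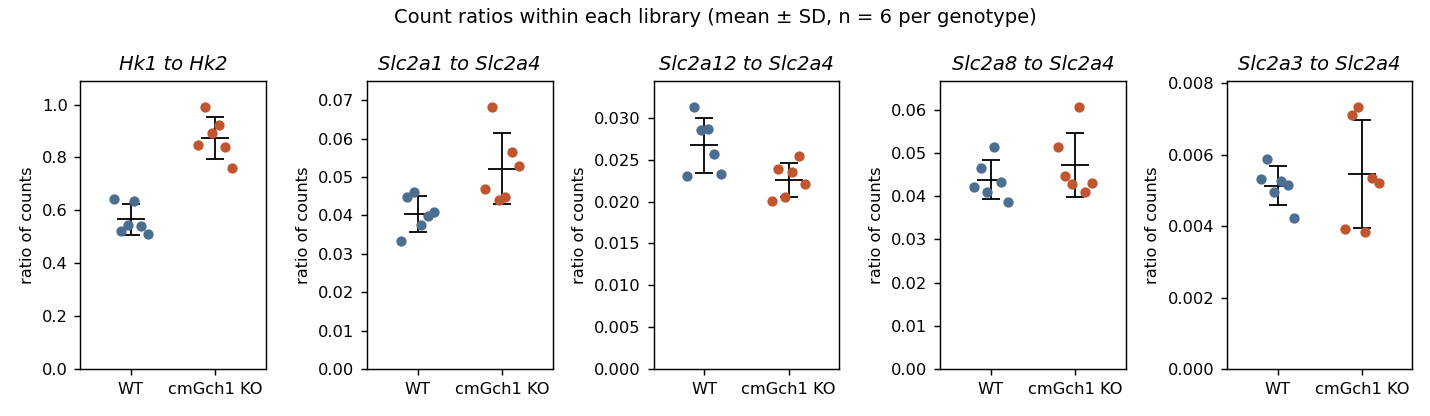
Ratios of raw counts of 2 genes within each library (vertical axes start at 0), with blue points for WT, orange points for cmGch1 KO and black bars for the mean ± SD of 6 libraries. The genotypes separate for Hk1 to Hk2 and overlap for the 4 transporter ratios.

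Hk3 (ENSMUSG00000025877; chromosome 13, 55005985 to 55021385, minus strand) encodes a hexokinase found mainly in myeloid cells. It had between 17 and 49 counts per library, under the minimum for the test over all genes. Hk3 shares 34 bases of exon with Unc5a on the other strand, which had between 42 and 98 counts. As the strand setting of the counting is not given, the part of Unc5a reads in the Hk3 values was not tested. The levels below are those of Hk3 as counted. Its levels were 0.540 to 1.06 cpm in WT, with a median of 0.924 cpm, and 1.05 to 2.01 cpm (median 1.56 cpm) in cmGch1 KO libraries. In cmGch1 KO hearts 5 of 6 libraries were above the highest WT library, and the sixth, replicate 6, was just below it. The means of 0.854 ± 0.199 and 1.57 ± 0.379 cpm (SD, n = 6 each) differed by the exact permutation test (two-sided, p = 0.00433, not adjusted). With no minimum on counts, Hk3 had a log2 fold change of 0.84 and an adjusted p of 0.163 over all genes (edgeR's quasi-likelihood test), and it was not called. The macrophage markers moved in the same direction, from 151 to 187 cpm summed in WT to 184 to 223 cpm in cmGch1 KO libraries. Of the 7 tested macrophage markers 6 had a higher mean in cmGch1 KO hearts and none passed the FDR threshold. The part of macrophages in the Hk3 values was not tested. Hkdc1 (ENSMUSG00000020080), a further member of the hexokinase family, lies next to Hk1 on chromosome 10 from 62383137 to 62422491. Its count was 0 in all 12 libraries, which allows up to 0.140 cpm in the library of lowest depth, a limit that covers counting error alone, as no molecular identifiers are named in the sources used here.

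Slc2a4 (ENSMUSG00000018566; chromosome 11, 69942539 to 69948188, minus strand) encodes GLUT4. It ranged from 371 to 438 cpm in WT libraries, with a median of 396 cpm, and from 334 to 421 cpm (median 356 cpm) in cmGch1 KO libraries. In cmGch1 KO hearts 4 of 6 libraries were below the lowest WT library, whereas replicate 1, at 421 cpm, was above 5 of the 6 WT libraries. The log2 fold change was -0.13, with a 95% interval from -0.27 to 0.02 (standard error 0.07; edgeR's quasi-likelihood test, adjusted p = 0.534). It was -0.055 with scaling by library size alone, -0.080 with sex-linked expression as a covariate and -0.083 without cmGch1 KO replicates 2 and 3. The 8 cardiomyocyte markers had log2 fold changes between -0.22 (Myl2) and -0.11 (Tnnt2), and the part of cardiomyocyte RNA in the Slc2a4 values was not tested. Slc2a4 made up 89.0% to 90.9% of the summed RPKM of the 5 transporters in WT and 87.8% to 90.1% in cmGch1 KO libraries.

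Slc2a12 (ENSMUSG00000037490; chromosome 10, 22645011 to 22704285, plus strand) encodes GLUT12, a further transporter of heart and muscle that responds to insulin. Its levels were 9.36 to 12.2 cpm in WT, with a median of 10.4 cpm, and 7.14 to 9.28 cpm (median 8.17 cpm) in cmGch1 KO libraries. The genotypes did not overlap, with all 6 cmGch1 KO libraries lower, as for 0.802% of tested genes, although the gap between cmGch1 KO replicate 5 and WT replicate 6 was small. The log2 fold change was -0.37, or 0.774 of the WT level, with a 95% interval from -0.56 to -0.18 (standard error 0.09). Its adjusted p of 0.0644 missed the threshold by edgeR's quasi-likelihood test, and the exact permutation test gave p = 0.00216, two-sided and not adjusted. The Wald test of DESeq2 called it lower (adjusted p = 0.00465), as it did 1.38% of all tested genes, and over all the alternatives the adjusted p ranged from 0.00465 to 0.324. Without cmGch1 KO replicates 2 and 3 the log2 fold change was -0.32. Slc2a12 shares 407 bases of exon with Tbpl1 on the other strand, and the strand setting of the counting is not given in the sources used here. Tbpl1 itself had between 281 and 664 counts and a log2 fold change of -0.12 (edgeR's test, adjusted p = 0.677).

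Slc2a1 (ENSMUSG00000028645; chromosome 4, 119108711 to 119137983, plus strand) encodes GLUT1, which endothelial cells and erythroid cells also carry. It ranged from 13.9 to 17.6 cpm in WT libraries, with a median of 16.2 cpm, and from 15.3 to 22.7 cpm (median 19.7 cpm) in cmGch1 KO libraries. In cmGch1 KO hearts 4 of 6 libraries were above every WT library, with the highest level in replicate 2, and replicates 3 and 4 lay within the WT range. The log2 fold change was 0.24, with a 95% interval from 0.01 to 0.47 (standard error 0.11; edgeR's quasi-likelihood test, unadjusted p = 0.0401, adjusted p = 0.395). At an unadjusted p under 0.05, 7.01% of all tested genes were higher and 4.51% lower.

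Slc2a8 (ENSMUSG00000026791; chromosome 2, 32972990 to 32982083, minus strand) encodes GLUT8, a transporter of intracellular membranes. It ranged from 15.5 to 19.1 cpm in WT and from 14.9 to 21.7 cpm in cmGch1 KO libraries, with medians of 17.8 and 15.5 cpm. Replicates 1 and 4 of cmGch1 KO, at 21.7 and 20.9 cpm, were above all WT libraries, and the other 4 lay between 14.9 and 16.1 cpm. The log2 fold change was -0.013, with a 95% interval from -0.25 to 0.23 (edgeR's quasi-likelihood test, adjusted p = 0.986), and its sign differed with the scaling and with the libraries used. Slc2a3 (ENSMUSG00000003153; chromosome 6, 122727809 to 122801640, minus strand), which encodes the high-affinity transporter GLUT3 of neurons and leukocytes, had 37 to 79 counts per library. Its levels were 1.70 to 2.34 cpm in WT and 1.33 to 2.55 cpm in cmGch1 KO libraries, and the cmGch1 KO range took in that of WT (exact permutation test, two-sided, p = 0.710).

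**Figure D3:**
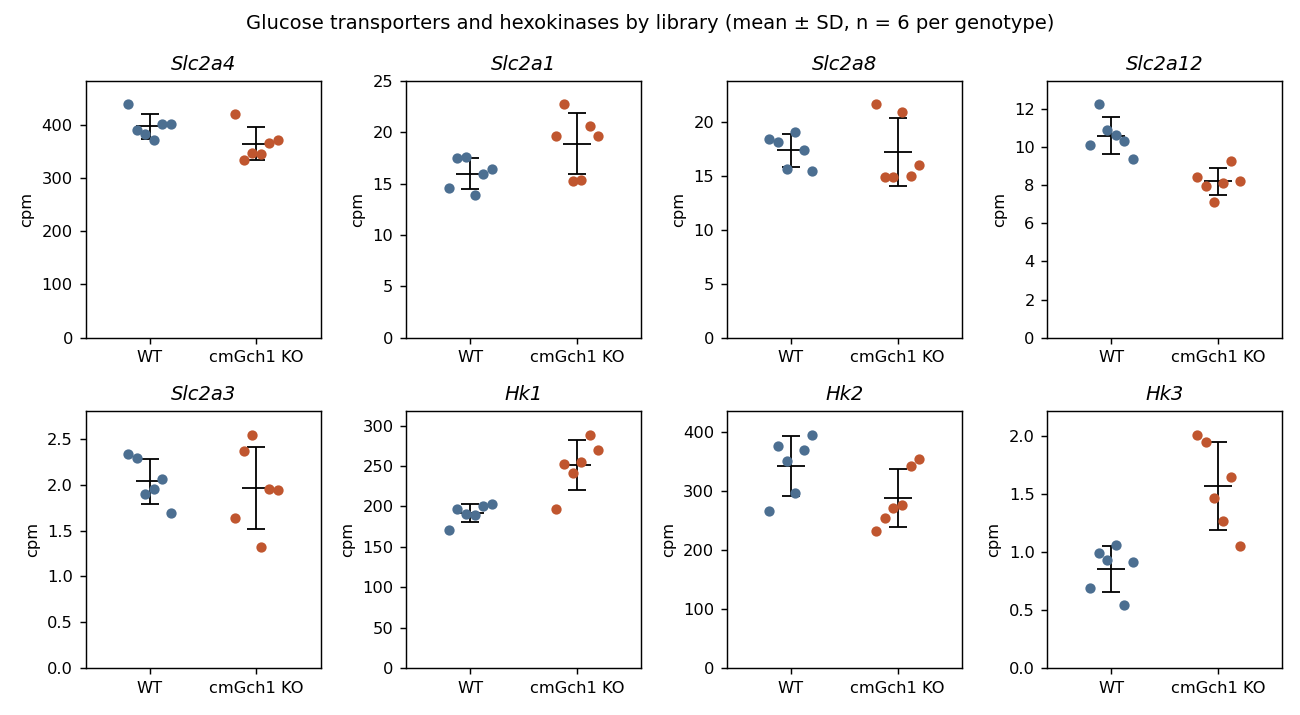
Level of 8 of the 9 genes (vertical axes, cpm, starting at 0) in each library, with blue points for WT, orange points for cmGch1 KO and black bars for the mean ± SD of 6 libraries; Hkdc1 had no counts and is left out. Slc2a12 is lower in all cmGch1 KO libraries, 5 of 6 cmGch1 KO libraries exceed WT for Hk1 and for Hk3, and the genotypes mix for Slc2a8 and Slc2a3.

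The balance between the basal and the insulin-responsive transporter in the bulk tissue was taken as the ratio of Slc2a1 to Slc2a4 counts. Endothelial cells also carry GLUT1, and the summed cardiomyocyte markers were lower in each cmGch1 KO library than in each WT library. The part of cell types in this ratio was not tested. In WT replicates 1 to 6 it was 0.0333, 0.0447, 0.0460, 0.0376, 0.0398 and 0.0410, and in cmGch1 KO replicates 1 to 6 it was 0.0468, 0.0682, 0.0439, 0.0447, 0.0564 and 0.0528. Of the cmGch1 KO libraries 4 exceeded all WT libraries, with replicate 2 the highest. The mean log2 ratio was -4.64 ± 0.17 in WT and -4.28 ± 0.24 in cmGch1 KO hearts (SD, n = 6 each), a difference of 0.36 or 1.28 fold (exact permutation test, two-sided, p = 0.0152, and 0.0379 adjusted over the 5 ratios). Leaving out 1 library moved the adjusted p past 0.05 in 6 of 12 cases, although the difference stayed between 0.28 and 0.40. These were WT replicates 1, 4, 5 and 6 (0.0541, 0.0812, 0.0722 and 0.0505, exact permutation tests) and cmGch1 KO replicates 2 and 6 (0.0613 and 0.0541, exact permutation tests).

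The ratio of Slc2a12 to Slc2a4 was 0.0230 to 0.0313 in WT and 0.0200 to 0.0254 in cmGch1 KO libraries, a log2 difference of -0.24 (exact permutation test, two-sided, p = 0.0325, and 0.0541 adjusted). Leaving out WT replicate 1, WT replicate 6 or cmGch1 KO replicate 5 brought the adjusted p to 0.0433, 0.0487 or 0.0397 (exact permutation tests), and the other 9 libraries left it between 0.0613 and 0.101 when left out. On the authors' normalized values the difference was -0.13 (exact permutation test, adjusted p = 0.188). For Slc2a8 to Slc2a4 the log2 difference was 0.10 (exact permutation p = 0.370, adjusted 0.463) and for Slc2a3 to Slc2a4 it was 0.05 (exact permutation p = 0.827, adjusted 0.827), with the genotypes overlapping in both.

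**Figure D4:**
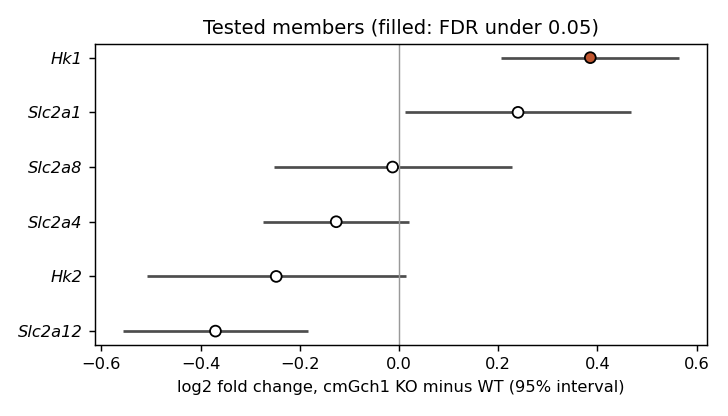
Log2 fold change of cmGch1 KO minus WT (horizontal axis) for the 6 tested genes, as points with the 95% interval of edgeR's quasi-likelihood fit. The filled point is Hk1 (0.39), which passed an FDR of 0.05; the intervals of Slc2a12 (-0.56 to -0.18) and Slc2a1 (0.01 to 0.47) also leave out 0 without adjustment.

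Other genes of glucose uptake and use were taken from 5 lists, of which 56 genes were tested. Of these 1 was called higher and 0 lower by edgeR, against 0.677% and 0.445% of all tested genes, with 7 higher and 3 lower at an unadjusted p under 0.05, where 7.01% and 4.51% of all tested genes were. DESeq2's Wald test called 2 higher, against 1.94% of all tested genes. Their median log2 fold change was -0.022 against -0.0095 over all tested genes. The transporters outside the 9 genes, such as the fructose carrier Slc2a5 and the sodium-coupled carrier Slc5a1, were all under the minimum, 10 of 10. The 24 genes of GLUT4 trafficking and uptake control were all tested, with 0 called by edgeR and 0 by DESeq2, and with 1 higher and 1 lower at an unadjusted p under 0.05. In that list Klf15, a transcription factor that raises Slc2a4 expression in muscle cells, had the lowest value, at -0.55 (adjusted p = 0.256 from edgeR's test). Txnip, an arrestin that lowers glucose uptake, had the highest, at 0.20 (adjusted p = 0.892).

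Of 10 tested genes around glucose 6-phosphate (enzymes that make or use it, its carrier Slc37a4 and the fructose bisphosphatase Tigar), 0 were called by edgeR and 0 by DESeq2, with 2 higher and 1 lower at an unadjusted p under 0.05. G6pdx, which opens the pentose phosphate pathway, averaged 5.13 ± 1.01 cpm in WT against 6.85 ± 0.703 cpm in cmGch1 KO hearts (SD, n = 6 each; log2 fold change 0.41, adjusted p = 0.209 from edgeR's test). Its libraries did not overlap between the genotypes, as for 1.07% of tested genes in this direction. Pgm1, a phosphoglucomutase on the way to glycogen, was at -0.19 (adjusted p = 0.267). Of 8 genes of mitochondrial hexokinase binding and its partners, none was called by edgeR or DESeq2, with 0 at an unadjusted p under 0.05 and values between -0.14 for Slc25a4 and 0.20 for Tspo. Vdac1, the porin of the outer membrane on which hexokinases dock, averaged 1031 ± 32.0 cpm in WT against 1010 ± 42.6 cpm in cmGch1 KO hearts (log2 fold change -0.03, adjusted p = 0.919 from edgeR's test).

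Of 15 tested genes of glycolysis after glucose 6-phosphate, edgeR called 1 higher and DESeq2's Wald test 2, Pfkp and Eno1. Over all tested genes these tests called 0.677% and 1.94% higher. At an unadjusted p under 0.05, 4 of the 15 were higher and 1 lower, where 7.01% and 4.51% of all tested genes were. Over the list 8 values lay above 0 and 7 below. Pfkp, a phosphofructokinase, rose from 55.1 ± 5.40 to 77.1 ± 8.38 cpm (SD, n = 6 each; log2 fold change 0.48, adjusted p = 0.0135 from edgeR's test). It was not called without cmGch1 KO replicates 2 and 3, where the calls over all genes fell from 76 higher and 50 lower to 16 and 18. Eno1, an enolase, had a log2 fold change of 0.24 (adjusted p = 0.0892 from edgeR's test). Neither Pfkp nor Eno1 overlapped between the genotypes, as for 1.07% of tested genes in this direction. Ldhb, a lactate dehydrogenase subunit abundant in heart, had the lowest value, at -0.17 (adjusted p = 0.328 from edgeR's test). Gapdh had the largest positive value, 0.66, with 48.9 ± 53.5 cpm in WT against 77.1 ± 52.1 cpm in cmGch1 KO hearts (adjusted p = 0.837 from edgeR's test). Whether its reads are split with near-identical copies was not tested.

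**Figure D5:**
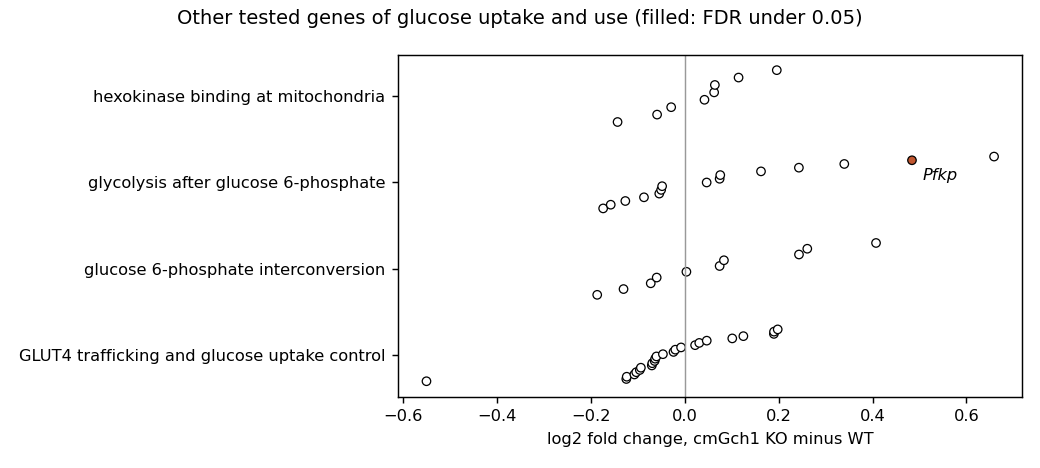
Log2 fold change of cmGch1 KO minus WT (horizontal axis) for the tested genes of 4 lists, 1 point per gene, with filled points for an FDR under 0.05. Pfkp (0.48) is the called gene, and the other points spread on both sides of 0.

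The tested genes whose levels followed each gene most closely over the 12 libraries, after the mean of each genotype was subtracted, are given as a description. For Hk2 these were Pcnt (r = 0.99), Rxra (0.98) and Gsk3b (0.98), and for Hk1 they were Trim41, Rnf31 and Mfsd6 (0.97, 0.97 and 0.96). For Slc2a4 they were Asb10, H2-DMa and Gstt1, each with r = 0.91, and for Slc2a1 they were Socs3, Smg9 and Rcan1 (0.79, 0.78 and 0.78). The 12 points of each r share the depth and preparation of their libraries, and none of these 12 genes had an FDR under 0.05 (edgeR's test). Each r was picked as among the highest over all tested genes, and how high such a maximum lies for unrelated genes was not tested.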

How the data were processed

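RNA of the left ventricle was sequenced from 6 WT and 6 cmGch1 KO mice, 1 library each, grouped by the genotype in the labels. Libraries were paired-end and dUTP-based, and the authors deposited raw counts per Ensembl gene, made with HISAT2, Picard and featureCounts. The submitters' processing notes add SAMtools and the build GRCm38, while the annotation and the strand setting are not given in the sources used here. The authors also deposited normalized values on a log2-like scale by a tool not named, used here as an alternative. Columns of fold changes or p-values were not among the files. Of 26921 identifiers, 26582 were in GENCODE M21, which gave symbols, positions and lengths.

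Counts were analysed with edgeR 4.0.16 in R 4.3.3: a minimum cpm of 3, exceeded in 6 or more libraries, TMM normalization, a quasi-likelihood fit on genotype, and Benjamini-Hochberg adjustment over all tested genes with a threshold of 0.05. The standard error was the log2 fold change divided by the square root of the F statistic. Single values and log2 count ratios were tested by an exact permutation test over 924 splits. The p-values set a difference or a relation against the spread between mice. DESeq2 1.42.0, limma 3.58.1 and sva 3.50.0 served the alternatives. The fit was tested on simulated data.

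The genes, lists and tests were chosen with earlier results of these data known. Named were the 9 genes, Gch1, list genes with an FDR under 0.05, the largest rise and fall of each list, and the 3 genes closest to each of 4 members. 1 item of the lists is not reported here. Eno1, Tpi1, Slc2a6, Vdac1, Tbpl1, Unc5a and the marker genes given with values were named after their values were seen.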

Additional observations from a re-analysis of the deposited data

How the results depend on the processing

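Hk1 to Hk2 kept its direction in all 16 alternatives and its adjusted p under 0.05 in 15. The exception was the replicate block, a test over pairs of equal number (0.63, exact permutation p adjusted to 0.0781), where 6 pairs cannot give an unadjusted p under 0.0312. Under that block Slc2a1 to Slc2a4 (0.36, adjusted p = 0.104) also missed the threshold. The numbers were not taken to pair the libraries, since the deviations of equal numbers correlated over 0.1 in only 3 of 6 pairs. These were replicates 1, 5 and 6 (r = 0.68, 0.40 and 0.51), and these 3 of 6 WT libraries were also closest to their own number. For replicates 2, 3 and 4 r was -0.09, -0.08 and -0.13. Whether part of the series shares a structure by number was not tested. In edgeR's fit with the replicate block 1 member and 1 list gene were called, as without it, and Hk1 had an adjusted p of 0.0134. Over all tested genes that fit called 112 higher and 76 lower, against 76 and 50 without the block.

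The number of members called, 1, was 2 with the Wald test of DESeq2 (Hk1 and Slc2a12), 3 with 1 surrogate variable (these and Hk2), and 0 with no minimum on counts, with sex-linked expression as a covariate, on the authors' normalized values and without cmGch1 KO replicates 2 and 3. Leaving out 1 library gave 0 to 1. These settings also changed the calls over all genes, from 76 higher and 50 lower to 218 and 155 with the Wald test, 302 and 334 with the surrogate variable, 86 and 55 with no minimum, 40 and 24 with sex-linked expression, 70 and 52 on the authors' values and 16 and 18 without cmGch1 KO replicates 2 and 3. In the settings without the Hk1 call its log2 fold change was 0.37 with no minimum, 0.39 with sex-linked expression, 0.36 on the authors' values and 0.39 without those replicates. The adjusted p of Hk1 ranged from 9.56e-04 to 0.160. The number of list genes called, 1 (Pfkp), was 0 with sex-linked expression and 0 without cmGch1 KO replicates 2 and 3. It was 2 with the Wald test of DESeq2 (Eno1 in addition), 2 with no minimum on counts (Slc2a6, higher, in addition) and 4 with a surrogate variable (Eno1, Ldhb and Tpi1 in addition). Leaving out 1 library gave 1 to 2, where 2 came without cmGch1 KO replicate 1.

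Slc2a8 turned to 0.057 with scaling by library size alone, 0.088 with sex-linked expression and 0.079 without cmGch1 KO replicates 2 and 3, and lay between -0.088 and 0.022 when 1 library was left out. Slc2a3 to Slc2a4 turned to -0.18 without cmGch1 KO replicates 2 and 3 and lay between -0.045 and 0.14 when 1 library was left out. Leaving out 1 library gave 0.28 to 0.40 for Slc2a1 to Slc2a4 and -0.28 to -0.19 for Slc2a12 to Slc2a4, which was -0.13 on the authors' values. The cause of these changes was not tested.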
